A study of Mus musculus with 8 samples.

Results

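The genes described here are 10 genes listed together as immediate early factors. They are the nuclear receptor genes Nr4a1, Nr4a2 and Nr4a3 and the zinc finger transcription factor genes Egr1, Egr2 and Egr3. The others are the immediate early response genes Ier2 and Ier5 and the anti-proliferation genes Btg1 and Btg2. Whether each is rapidly induced in these cells was not tested. The genes were found by gene symbol, 10 of 57180 genes in the deposited table. The RNA came from flow-sorted mouse regulatory T (Treg) cells, a CD4 lineage that holds immune responses in check, with different mice as the source. The 8 libraries are 3 labelled chimera KO and 5 labelled chimera WT, called KO and WT below. The labels name neither the deleted gene nor a strain, sex or age, they do not say what kind of chimera the mice were, and they do not tie a library to 1 animal, so p-values measure only the spread between libraries.

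Immediate early genes are switched on within minutes of a stimulus from signalling proteins already present in the cell, without new protein synthesis. In T cells the stimulus is mainly the antigen receptor, which acts through calcium and NFAT and through serum response factor. NR4A proteins are orphan nuclear receptors that help to keep Foxp3 expressed in Treg cells. EGR2 and EGR3 restrain T cell activation, and BTG1 and BTG2 bind the CCR4-NOT complex, which shortens poly(A) tails, and are linked to T cell quiescence.

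In these libraries Btg1 was lower in every KO library than in every WT library after TMM scaling, with 757 ± 31.8 normalised CPM in KO and 2163 ± 556 in WT libraries (SD, n = 3 and 5). Nr4a2 and Egr3 were almost absent from the KO libraries, at no more than 3 counts in each, while 3 of 5 WT libraries held Nr4a2 and 4 of 5 held Egr3 at 86 counts or more. Nr4a1 averaged 18.7 ± 14.8 in KO and 132 ± 157 in WT libraries. Egr1, Egr2 and Ier2 showed no steady direction. None of the 10 passed edgeR's quasi-likelihood test after Benjamini-Hochberg adjustment over the 14755 genes tested, where 0% of genes passed.

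CPM are a gene's counts relative to the library's total, and normalised CPM are CPM after TMM scaling, which rescales each library so that most genes do not differ. Library totals were 4314445 to 8477879 counts in KO and 10544754 to 17977089 counts in WT libraries, and the TMM factors were 1.32 to 1.49 in KO libraries, 1.08 to 1.15 in WT replicates 1 to 3, 0.40 in WT replicate 4 and 0.69 in WT replicate 5. Factors below 1 make normalised CPM larger than plain CPM. The median log2 change of all genes (KO minus WT throughout) was −0.42 with TMM, −0.72 with DESeq2's size factors, 0.32 with upper quartile factors and 0.21 with library totals alone. WT replicates 4 and 5 also stood apart in content. They held 8201 and 9422 genes at 10 counts or more, against 12398 to 14245 in the KO libraries and 12660 to 14009 in the other WT libraries, in spite of their totals. The summed T cell markers (5 genes, none at 0 in all libraries) were lower in every KO library, at 867 to 1411 normalised CPM, than in every WT library, at 1685 to 15936. Their median log2 change was −2.37, and −0.80 without WT replicates 4 and 5. The summed B cell markers (6 genes) lay at 78.4 to 194 normalised CPM in KO and at 199 to 3137 in WT libraries, highest in WT replicate 4. The summed NK cell markers (6 genes, of which Ncr1 was at 0 in all libraries and Gzma and Klrd1 in all but WT replicate 4) lay at 0.15 to 56.8 in KO and at 46.2 to 4039 in WT libraries, again highest in WT replicate 4. Erythroid markers (5 genes) lay at 0.45 to 7.16 in KO and at 0 to 9102 in WT libraries, highest in WT replicate 5. All 5 Treg markers listed were detected, with summed levels of 635 to 2562 normalised CPM in KO and 2186 to 6011 in WT libraries. Foxp3, which defines the Treg lineage, had 26.6, 2.69 and 24.2 normalised CPM in KO replicates 1 to 3, and 11.9, 36.6, 41.9, 3.09 and 1.26 in WT replicates 1 to 5. The 2 WT libraries with the lowest Foxp3 were thus replicates 4 and 5. The part of these libraries and marker levels in the results below was not tested beyond the values given without the libraries. In bulk RNA, fewer cells that express a gene and less RNA per cell cannot be told apart.

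The promoters of these genes are shown because many immediate early promoters carry sites for CREB and serum response factor. RefSeq (GRCm38.p6) promoters were searched for 7 of the 10 genes, in 11 windows. Egr1, Egr3 and Ier2 were not searched. Of the windows, 5 are printed, each the 250 bases before the start, 5′ to 3′, on the gene's strand. They are chr15:101266596-101266845 (plus) for Nr4a1, chr2:57124004-57124253 (minus) for Nr4a2, chr10:67537619-67537868 (plus) for Egr2, chr10:96616751-96617000 (plus) for Btg1 and chr1:134079156-134079405 (minus) for Btg2. Capitals mark matches, on either strand, to the motifs searched: the cAMP response element TGACGTCA and its core TGACG, the CArG box of serum response factor, the NR4A site AAAGGTCA, the EGR sites GCGGGGGCG and GCGTGGGCG, the AP-1 site TGANTCA and the TATA box TATAAA.
Nr4a1: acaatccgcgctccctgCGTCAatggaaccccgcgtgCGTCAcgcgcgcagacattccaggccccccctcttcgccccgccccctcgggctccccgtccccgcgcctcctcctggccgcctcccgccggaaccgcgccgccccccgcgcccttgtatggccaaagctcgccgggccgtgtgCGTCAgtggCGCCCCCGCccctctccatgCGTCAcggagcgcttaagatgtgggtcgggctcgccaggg
Nr4a2: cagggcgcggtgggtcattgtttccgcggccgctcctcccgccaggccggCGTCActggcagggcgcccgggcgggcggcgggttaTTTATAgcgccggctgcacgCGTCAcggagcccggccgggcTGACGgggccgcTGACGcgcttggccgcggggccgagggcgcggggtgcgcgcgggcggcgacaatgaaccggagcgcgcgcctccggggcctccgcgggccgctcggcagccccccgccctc
Egr2: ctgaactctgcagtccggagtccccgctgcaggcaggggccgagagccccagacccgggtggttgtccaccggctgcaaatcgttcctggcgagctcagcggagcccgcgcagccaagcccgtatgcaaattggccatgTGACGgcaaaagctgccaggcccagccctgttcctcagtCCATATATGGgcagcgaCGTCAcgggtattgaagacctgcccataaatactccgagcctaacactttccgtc
Btg1: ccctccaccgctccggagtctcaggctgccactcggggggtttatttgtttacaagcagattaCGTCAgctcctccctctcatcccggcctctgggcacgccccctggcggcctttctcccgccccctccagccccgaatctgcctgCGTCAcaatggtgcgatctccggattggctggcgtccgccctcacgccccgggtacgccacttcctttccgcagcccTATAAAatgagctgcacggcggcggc
Btg2: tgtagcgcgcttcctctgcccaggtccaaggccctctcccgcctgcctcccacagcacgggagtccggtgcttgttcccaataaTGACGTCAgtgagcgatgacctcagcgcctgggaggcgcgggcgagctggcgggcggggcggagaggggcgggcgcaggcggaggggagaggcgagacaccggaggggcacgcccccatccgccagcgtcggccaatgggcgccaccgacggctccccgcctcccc
On the other strand the core reads CGTCA. The core TGACG was found in 6 of the 7 genes, and in 17.8% of the 32851 promoters of the table. Nr4a1 and Nr4a2 each held 4 matches to it and Btg1 held 2. The full element TGACGTCA, which contains the core on both strands, was found in Btg2 alone of the 7. It lay 166 bases before the start, and 1.55% of all promoters held it. Of the 7, Egr2 alone held a CArG box, 72 bases before the start of the window printed, against 1.47% of all promoters. The EGR site GCGGGGGCG was found in Nr4a1 alone of the 7, 60 bases before its start, against 2.57% of all promoters. TATAAA stood 26 bases before the start of Btg1 and, on the other strand, 164 bases before that of Nr4a2, against 12.4% of all promoters. No window held AAAGGTCA, GCGTGGGCG or TGANTCA, which were in 1.34, 0.54 and 6.75% of all promoters. The members' windows were 54 to 80% G and C, against a median of 52.4% over all windows, so these shares are not matched for base composition. A match is a run of letters and not a site shown to be bound.

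Nr4a1 (ENSMUSG00000023034, chromosome 15, 101254269 to 101274795, plus strand, protein-coding), often used as a reporter of antigen receptor signal strength, had 34.5, 5.23 and 16.3 normalised CPM in KO replicates 1 to 3. In WT replicates 1 to 5 it had 93.9, 80.2, 62.5, 409 and 15.6. WT replicates 1 to 4 lay above every KO library, and WT replicate 5 lay among them. The log2 change was −2.82 (SE 1.21, 95% interval −5.53 to −0.11), with an adjusted p of 0.337 in edgeR and 0.0186 in DESeq2. The change was −1.76 without WT replicate 4. Without WT replicates 4 and 5 it was −2.09, and each KO library lay below each remaining WT library.

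Nr4a2 (ENSMUSG00000026826, chromosome 2, 57106830 to 57124003, minus strand) had 3, 0 and 2 counts in the KO libraries. It had 171, 1899 and 608 counts in WT replicates 1 to 3 and 0 in WT replicates 4 and 5. A count of 0 allows up to 3, for counting error only, and those are the 2 libraries with the fewest genes detected, as holds for the zeros of the other NR4A and EGR genes in them. The gene was thus detected well in 3 WT libraries only, and the groups overlap through the 2 WT libraries at 0. Summed over each group and divided by the TMM-scaled library sizes, the WT level was 255 times the KO level (95% interval 109 to 787, exact, counting error only). Divided by library totals it was 153 times (65.3 to 470). In edgeR the log2 change was −7.71 (SE 3.11, adjusted p = 0.325), and in DESeq2 the adjusted p was 0.00676. Nr4a2 and Egr3 passed the count filter through WT libraries alone. Neither passed it without WT replicates 2 and 3, the 2 libraries whose name begins with FY, and no KO library has such a name. Those 2 libraries held 1899 and 608 counts of Nr4a2, and 295 and 1290 counts of Egr3. What part this had in the changes of both genes was not tested.

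Nr4a3 (ENSMUSG00000028341, chromosome 4, 48045153 to 48086447, plus strand), the third NR4A receptor, had 21.2, 0.45 and 0.36 normalised CPM in the KO libraries, against 59.9, 21.3, 22.4, 0 and 58.2 in the WT libraries. The highest KO library, replicate 1, lay just under WT replicate 2, and WT replicate 4 was at 0 counts. The log2 change was −2.14 (SE 1.99, adjusted p = 0.567 in edgeR). The other KO libraries, replicates 2 and 3, held 3 and 2 counts, and without KO replicate 1 the change was −6.34.

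Egr1 (ENSMUSG00000038418, chromosome 18, 34859823 to 34864984, plus strand) encodes a factor that is induced through serum response factor. It had 22.2, 7.78 and 20.9 normalised CPM in the KO libraries, against 11.9, 1.47, 0, 86.5 and 0 in the WT libraries. WT replicates 2, 3 and 5 lay below every KO library, and WT replicate 4 lay above them all. The log2 change was −0.23 (SE 2.11, 95% interval −4.94 to 4.47, adjusted p = 0.959 in edgeR). It was 2.34 without WT replicate 4, and its sign changed in 10 of 20 alternative settings.

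Egr2 (ENSMUSG00000037868, chromosome 10, 67535475 to 67542188, plus strand), the gene whose promoter above holds the CArG box, had 10, 2 and 95 counts in the KO libraries and 81, 0, 598, 0 and 0 in the WT libraries. Detection was patchy in both groups, with 3 WT libraries at 0. Its log2 change of −0.92 had an SE of 2.48 (adjusted p = 0.852 in edgeR) and was 1.85 without WT replicate 3.

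Egr3 (ENSMUSG00000033730, chromosome 14, 70077203 to 70082614, plus strand), a target of NFAT, had 3, 3 and 1 counts in the KO libraries. It had 86, 295, 1290, 0 and 534 counts in WT replicates 1 to 5. Every WT library except replicate 4 lay far above every KO library. On TMM-scaled library sizes the summed WT level was 150 times the KO level (95% interval 72.7 to 374, exact, counting error only), and on library totals it was 89.7 times (43.5 to 223). In edgeR the log2 change was −7.12 (SE 2.33, adjusted p = 0.325), and in DESeq2 the adjusted p was 0.000292. Without WT replicate 4 each KO library lay below each WT library.

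Ier2 (ENSMUSG00000053560, chromosome 8, 84661331 to 84662852, minus strand), which encodes a nuclear protein, had 79.1, 64.6 and 34.9 normalised CPM in the KO libraries, against 55.1, 43.9, 57.9, 295 and 103 in the WT libraries. Only WT replicates 4 and 5 lay above the KO libraries. The log2 change was −0.90 (SE 0.87, adjusted p = 0.581 in edgeR) and 0.21 without those 2 libraries. Ier5 (ENSMUSG00000056708, chromosome 1, 155096361 to 155099636, minus strand), which binds protein phosphatase 2A and heat shock factor 1, had 65.1, 99.1 and 58.0 in the KO libraries, against 144, 76.7, 105, 1160 and 146 in the WT libraries. WT replicate 2 lay below the highest KO library, and WT replicate 4 lay far above all the others. The log2 change of Ier5 was −2.14 (SE 1.05, adjusted p = 0.361 in edgeR) with all libraries and −0.67 without WT replicate 4. The 9 heat shock genes of the dissociation response were also highest in WT replicate 4, with summed levels of 557 to 936 normalised CPM in KO and 1528 to 5875 in WT libraries; their part in the levels of Ier2 and Ier5 was not tested.

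Btg1 (ENSMUSG00000036478, chromosome 10, 96617006 to 96622809, plus strand) had 793, 744 and 733 normalised CPM in KO replicates 1 to 3 and 2264, 3004, 1635, 2231 and 1679 in WT replicates 1 to 5. The KO libraries had a coefficient of variation of 4.2%, against 25.7% in the WT libraries, and all lay below the lowest WT library. The log2 change was −1.51 (SE 0.42, 95% interval −2.44 to −0.59), with an unadjusted p of 0.00467, an adjusted p of 0.325 in edgeR and of 0.00027 in DESeq2. As plain CPM of the library totals, Btg1 stood at 1070, 1090 and 949.6 in the KO libraries and at 2577, 3249, 1740, 883 and 1142 in the WT libraries. There WT replicate 4 lay below the KO libraries, replicate 5 just above them, and the log2 change was −0.88 (adjusted p = 0.472 in edgeR). The Btg1 copies on chromosome X, Btg1b and Btg1c, held 0 counts except 1 count of Btg1c in KO replicate 2.

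**Figure D1:**
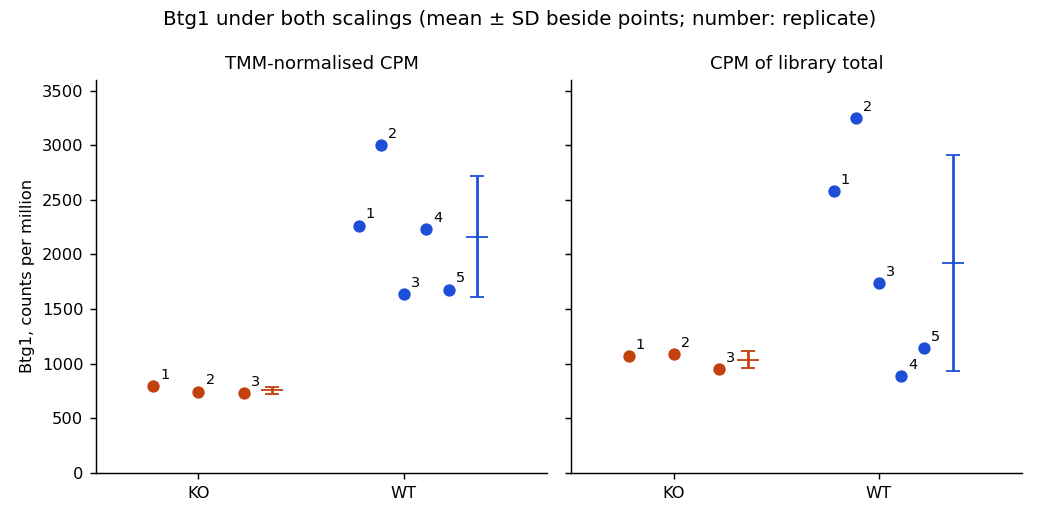
CPM of Btg1 (y axis) in each KO and WT library, scaled by TMM (left) and by the library total (right); points are libraries with replicate numbers, and the bars beside them are mean ± SD. The KO libraries sit below all WT libraries at left, while WT replicate 4, at 883, sits below them at right.

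Btg2 (ENSMUSG00000020423, chromosome 1, 134075170 to 134079120, minus strand), a target of p53 as well as an immediate early gene, had 83.9, 67.4 and 2.33 normalised CPM in the KO libraries, against 117, 127, 123, 35.4 and 450 in the WT libraries. All WT libraries but replicate 4 lay above the KO libraries. The log2 change was −1.74 (SE 1.17, adjusted p = 0.452 in edgeR). It was −0.90 without WT replicate 5 and −1.01 on library totals. KO replicate 3 held 13 counts of Btg2, against 959 and 451 in the other KO libraries.

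**Figure D2:**
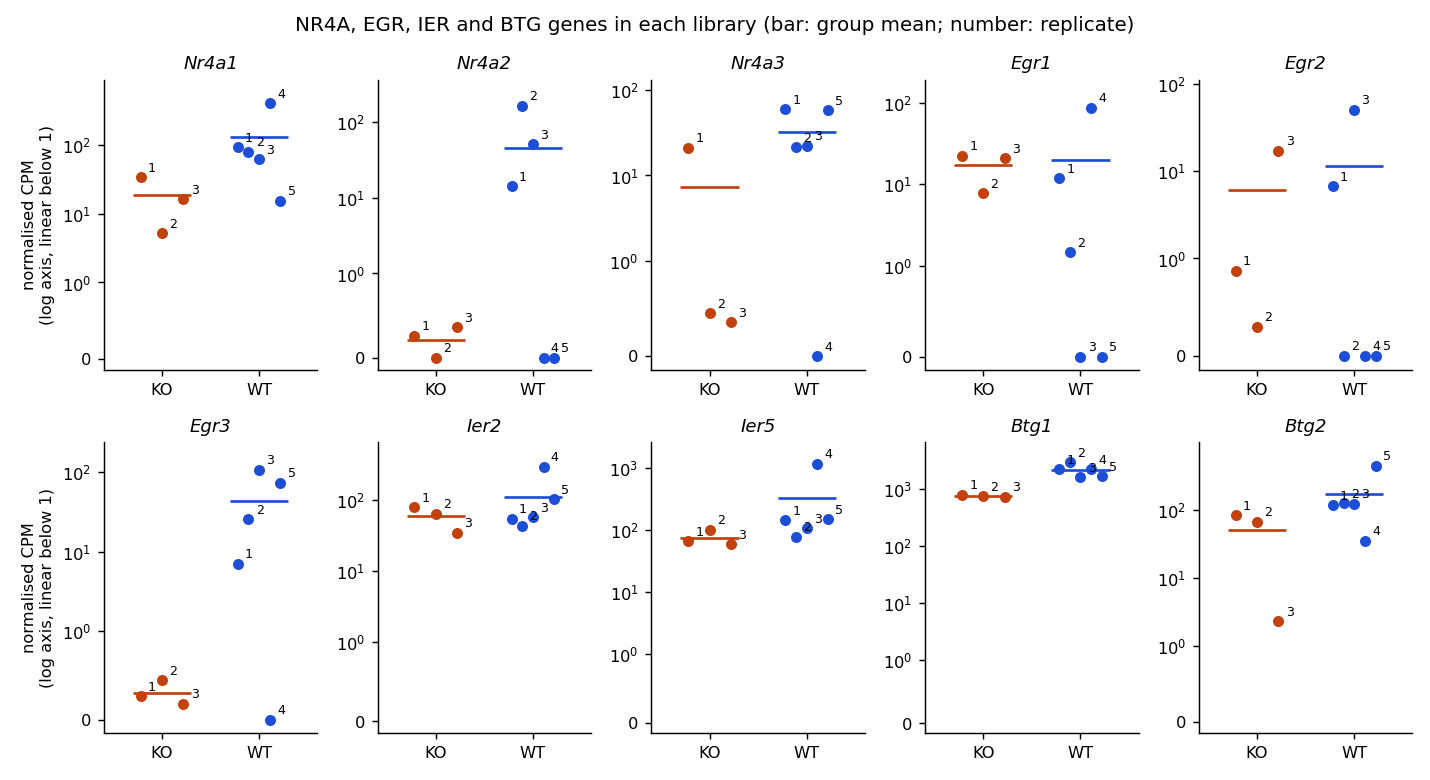
Normalised CPM (y axis, logarithmic above 1 and linear below) of the 10 genes in the 3 KO and 5 WT libraries; each point is a library with its replicate number and each bar a group mean. Nr4a2 and Egr3 lie below 1 in every KO library, Btg1 separates the groups, and WT replicate 4 is the highest library for Nr4a1, Egr1, Ier2 and Ier5.

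Counted together, 1 of the 10 genes, Btg1, had groups that did not overlap, lower in KO, where 4.49% of all genes tested did so. Without WT replicates 4 and 5 it was 6 of 10, namely Nr4a1, Nr4a2, Nr4a3, Egr3, Btg1 and Btg2, against 10.9% of all genes. Without WT replicate 4 alone it was 4 of 10, against 6.52%, and on library totals with all libraries it was 0 of 10, against 1.67%. Nr4a3 is in both subset counts with TMM only. As plain CPM of library totals it had 28.5 in KO replicate 1, above 23.1 and 23.8 in WT replicates 2 and 3. An unadjusted p under 0.05, lower in KO, was found for 4 of 10 (Nr4a1, Nr4a2, Egr3 and Btg1), against 6.43% of all genes. DESeq2 called the same 4 at an adjusted p under 0.05, against 10.0% of all genes lower in KO, and it gave no p for Egr1, Egr2 and Ier5. Over the alternative settings the adjusted p of these 4 reached 0.727 at the highest, and only DESeq2 put it under 0.05. Since Nr4a2 and Egr3 passed the filter only through the WT libraries, such counts describe the list and support nothing on their own. The 10 log2 changes were all negative with TMM, as were 56.8% of all, and 8 were negative on library totals or upper quartile factors, where Egr1 and Ier2 turned positive.

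The median log2 change of the 10 genes was −1.94, which is 1.52 below the median of all genes on the log2 scale (difference −1.52). That difference was −1.53 with DESeq2's size factors, −1.31 with upper quartile factors and −1.16 with library totals. It was smallest with a fit of protein-coding genes alone (−0.97) and with a mean of at least 5 CPM (−0.98). Among the 10610 protein-coding genes tested, with olfactory and vomeronasal receptors left out, the median was −0.90 and 32.6% were positive. Relative to the median of all genes, Nr4a1, Nr4a3, Ier5, Btg1 and Btg2 lay lower in all 20 alternative settings. Nr4a2 lay lower in the 16 and Egr3 in the 19 in which they were tested. Those 2 genes reached the count filter through WT libraries alone, so their sign in the filtered settings was set in advance and shows nothing on its own. Steadiness over settings is thus described for the other genes only. Egr1 lay below the median of all genes in 8 of 20, and Egr2 and Ier2 each in 15 of 20. As a share of library totals, which TMM does not touch, the 10 genes together held 0.148, 0.145 and 0.114% in the KO libraries, against 0.316, 0.383, 0.236, 0.167 and 0.172% in the WT libraries. Btg1 makes up most of that share.

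**Figure D3:**
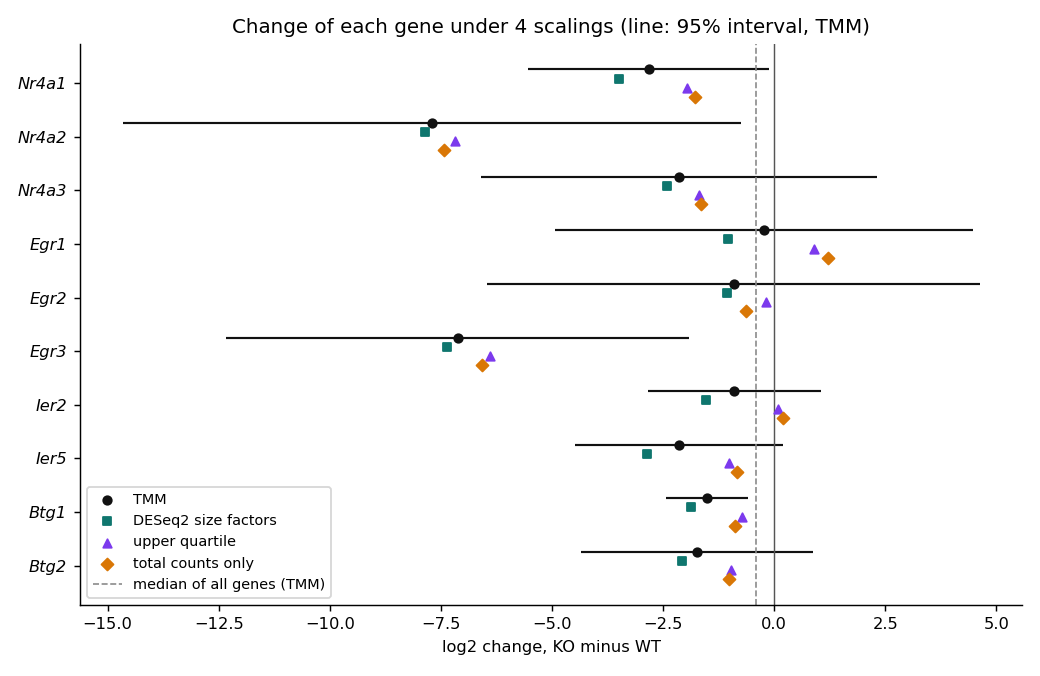
Log2 change, KO minus WT (x axis), of each gene under TMM (with its 95% interval), DESeq2's size factors, upper quartile factors and library totals alone; the dashed line is the median of all genes with TMM. Nr4a2 and Egr3 lie below −6 under every scaling shown, and Egr1 and Ier2 cross 0.

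Scaling also cancels within a family, so the makeup of the NR4A and EGR counts was compared between libraries. Egr1 gave 95.1% (95% Wilson interval 91.9 to 97.1), 91.2% (81.1 to 96.2) and 54.9% (48.2 to 61.5) of the EGR counts in KO replicates 1 to 3. In WT replicates 1 to 5 it gave 46.1% (40.7 to 51.7), 5.45% (3.43 to 8.55), 0% (0 to 0.20), 100% (99.4 to 100) and 0% (0 to 0.71). The share of Egr1 was thus higher in each KO library than in 4 of the 5 WT libraries, WT replicate 4 being the exception. Egr3 gave 1.12, 5.26 and 0.47% in the KO libraries, against 27.7, 94.6, 68.3, 0 and 100% in the WT libraries, and again WT replicate 4 alone overlapped with the KO libraries. Totals behind these shares were 267, 57 and 213 counts in KO and 310 to 1888 in WT libraries, and the intervals cover counting error only.

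Among the NR4A genes, Nr4a1 gave 61.7, 92.1 and 95.8% of the counts in the KO libraries, against 55.9, 30.1, 46.0, 100 and 21.2% in the WT libraries, so that WT replicate 4 alone exceeded the KO libraries in full. Nr4a2 gave 0.47, 0 and 2.11% in the KO libraries, against 8.44, 61.9, 37.6, 0 and 0% in the WT libraries. The largest NR4A contributor differed within the WT group: Nr4a1 in replicates 1, 3 and 4, Nr4a2 in replicate 2 and Nr4a3 in replicate 5.

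**Figure D4:**
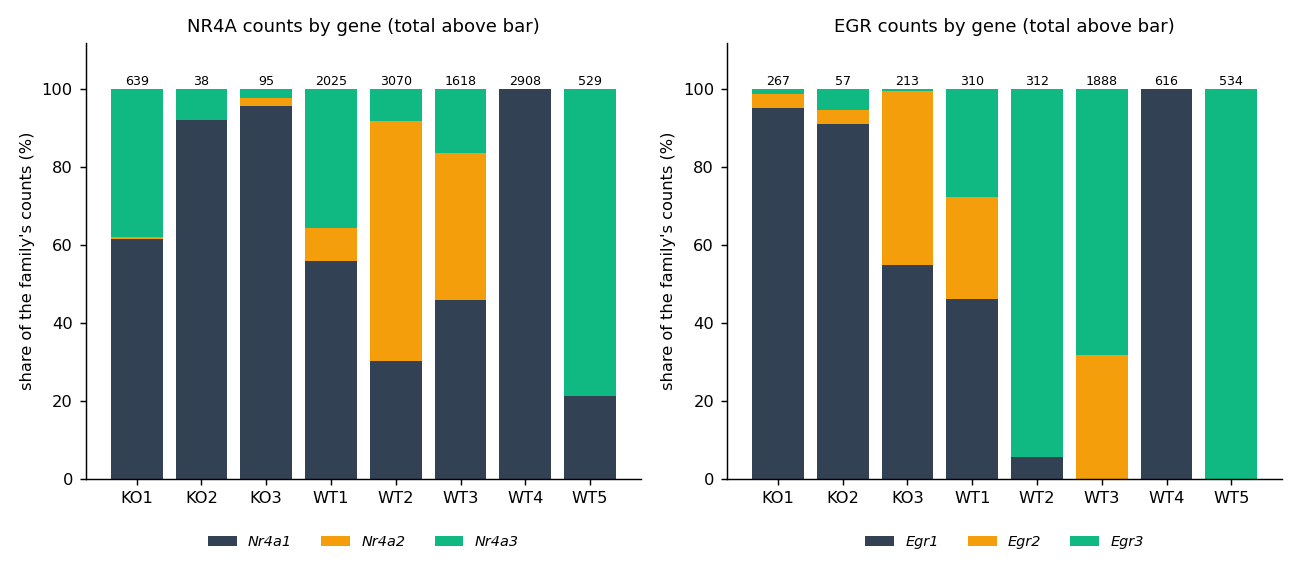
Share of the NR4A (left) and EGR (right) counts that came from each gene (y axis, percent), per library, with the family's count above each bar. Egr3 takes 5.26% or less in the KO libraries and 27.7% or more in every WT library except replicate 4, where Egr1 takes 100%.

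Per kilobase of gene length, Btg1 stood highest in both groups, at 151 ± 6.36 normalised CPM per kilobase in KO and 432 ± 111 in WT libraries. In KO libraries Ier2 (39.1 ± 14.8), Ier5 (22.6 ± 6.72) and Btg2 (18.7 ± 15.7) came next, and in WT libraries Ier5 (99.6 ± 143), Ier2 (72.9 ± 69.1), Btg2 (62.2 ± 58.5) and Nr4a1 (53.4 ± 63.5). Apart from Btg1, neighbours in these orders differed by less than the sum of their SDs. Nr4a2 (0.06 ± 0.05) and Egr3 (0.08 ± 0.04) were lowest in KO libraries, while Egr2 (3.84 ± 7.39) and Egr1 (4.45 ± 8.37) were lowest in WT libraries.

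A list of 33 other immediate early genes had 26 members tested, of which 24 had a log2 change below 0 (median −1.54, against −0.42 over all genes). Over the protein-coding genes tested the median was −0.90, and 32.6% were positive. In edgeR 0 passed, 8 had an unadjusted p under 0.05 and all 8 were lower in KO, against 6.43% of all genes. In 6 the groups did not overlap, all lower in KO, against 4.49% of all genes. DESeq2 called 9, all lower, against 10.0% of all genes. Klf6, a zinc finger factor gene, had 61.5 ± 31.4 normalised CPM in KO and 620 ± 333 in WT libraries (log2 change −3.33, SE 0.73, adjusted p = 0.325 in edgeR). Cd69, an early activation marker that retains T cells in tissue, had 119 ± 86.8 in KO and 875 ± 281 in WT libraries. Zfp36l2, which encodes an RNA-binding protein that promotes decay of mRNA with AU-rich elements, had 332 ± 233 in KO and 1365 ± 585 in WT libraries. On library totals 21 of the 26 were negative, with a median of −0.87 against 0.21 over all genes.

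Of 18 partners of the members, all 18 were tested and 14 had negative log2 changes (median −1.25, against −0.90 over protein-coding genes). In edgeR 0 passed. On library totals the median was −0.48, with 12 negative. In edgeR 3 had an unadjusted p under 0.05 in either direction, against 14.4% of all genes, and 4 had groups that did not overlap, 3 lower and 1 higher, against 17.7% of all genes. The partners include the NAB corepressors of EGR proteins, the RXR partners of NR4A proteins, and the CCR4-NOT subunits that BTG proteins bind. Cnot6l, a deadenylase of that complex, had 70.7 ± 65.8 normalised CPM in KO and 356 ± 189 in WT libraries (log2 change −2.33, SE 0.95, adjusted p = 0.325 in edgeR). Tob2, of the BTG/TOB family, had 18.7, 6.73 and 6.80 in the KO libraries and 72.8, 72.3, 47.6, 59.7 and 22.2 in the WT libraries, with no overlap. Rxrb, which encodes retinoid X receptor beta, had 3.01 ± 1.30 in KO and 0.39 ± 0.53 in WT libraries, each KO library lying above each WT library (log2 change 2.87, SE 1.22, adjusted p = 0.334 in edgeR). The EGR corepressor Nab1 had a log2 change of −1.26 (95% interval −3.41 to 0.88). Its relative Nab2 had a log2 change of −2.89 (95% interval −7.97 to 2.19).

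Of 19 upstream genes of the calcium, NFAT and serum response routes, 17 were tested and 13 were negative (median −1.20, against −0.90 over protein-coding genes). In edgeR 0 passed and 0 had an unadjusted p under 0.05. Nfatc3, which encodes an NFAT factor, had 85.8 ± 21.3 normalised CPM in KO and 268 ± 334 in WT libraries, with 863 in WT replicate 4. Nfatc1 had 37.3 ± 30.5 in KO and 125 ± 72.8 in WT libraries. The groups of all 17 genes overlapped. The median on library totals was −0.23.

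Of 18 genes linked to NR4A or EGR factors in T cells, 13 were tested and 9 were negative (median −1.06), with 0 passing in edgeR. Protein-coding genes as a whole had a median of −0.90, with 32.6% positive. On library totals the median was −0.25, with 6 positive and 7 negative. An unadjusted p under 0.05 was found for 3 lower and 1 higher, against 14.4% of all genes in either direction. The groups did not overlap for 3 lower and 1 higher, against 17.7% of all genes in either direction. Cblb, a ubiquitin ligase of T cell anergy that EGR2 and EGR3 induce, had 39.6 ± 15.7 normalised CPM in KO and 199 ± 47.0 in WT libraries (log2 change −2.33, SE 0.66, adjusted p = 0.325 in edgeR). Ctla4, an inhibitory receptor gene, had 184 ± 150 in KO and 657 ± 227 in WT libraries. Cdkn1a, the cell cycle inhibitor p21, ran the other way, with 324, 384 and 380 in the KO libraries and 57.7, 93.2, 116, 9.13 and 45.6 in the WT libraries. Every KO library lay above every WT library, and the log2 change was 2.50 (SE 0.76, adjusted p = 0.325 in edgeR). Foxp3 itself had a log2 change of −0.09 (SE 1.35).

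**Figure D5:**
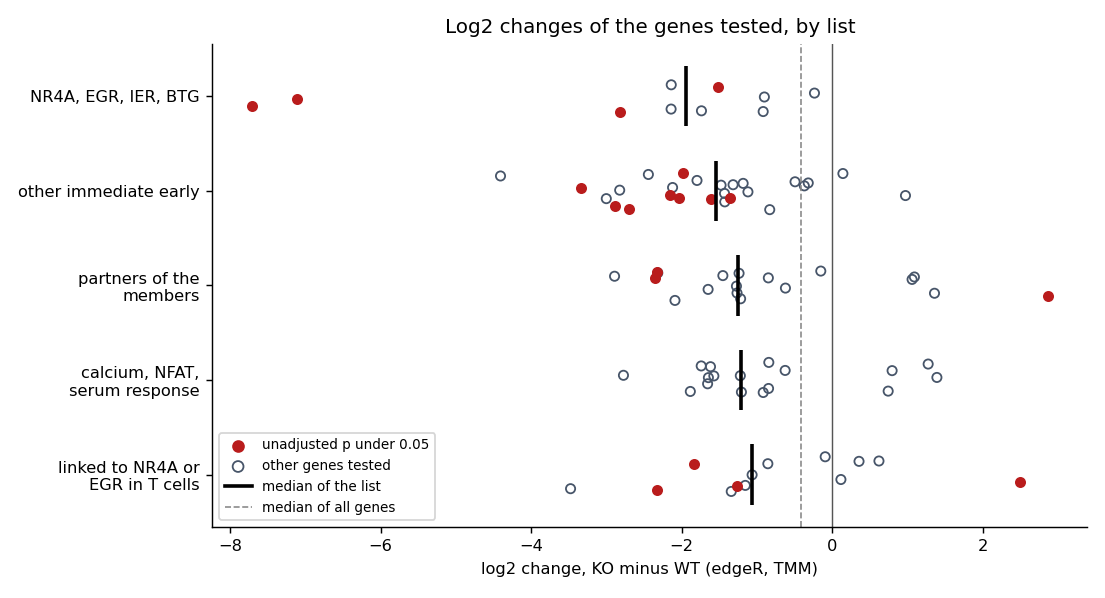
Log2 change, KO minus WT (x axis), of the genes tested in each list, with the list's median as a bar; filled points have an unadjusted p under 0.05 and none passed after adjustment. The medians run from −1.94 for the NR4A, EGR, IER and BTG genes to −1.06 for genes linked to NR4A or EGR factors, against −0.42 over all genes.

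The pattern of the 10 genes over the 8 libraries, taken as the mean of their standardised log2 normalised CPM, was most like those of Celf2 (Pearson r = 0.98), Ubl3 (0.98), Cab39 (0.97), Pts (0.97) and Tob2 (0.97) among 7971 protein-coding genes. That mean lay between −0.68 and −0.22 in the KO libraries and between 0.07 and 0.43 in the WT libraries. A high r can thus come from the split between the groups alone. The 10 genes did not share 1 pattern, with a median r of 0.19 over their 45 pairs. Such likenesses are descriptions over 8 libraries that share their depth and scaling. Celf2, an RNA-binding protein gene, had 181 ± 121 normalised CPM in KO and 796 ± 174 in WT libraries.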

How the data were processed

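Gene expression was measured in 8 libraries of sorted mouse Treg cells (3 KO, 5 WT, from the sample titles), made with a low-input full-length kit that does not mark strand, per the labels' protocols. The authors deposited expected counts per gene, which can be fractional. The mm10 build and RSEM, HISAT2, StringTie, fastp and DESeq2 are listed in the submitters' processing notes, with neither roles nor versions; no annotation is stated there. The authors' group mean columns were not used, and 0 columns belong to other samples. Their KO mean equalled the mean of the 3 KO libraries within 0.001 for 100% of genes. Their WT mean equalled that of the 5 WT libraries for 36.85% of genes, and the reason was not tested. Gene lengths came from the deposited table, and coordinates and gene types from GENCODE M21 (GRCm38) for the 51884 identifiers found there. No other annotated gene overlaps any of the 10.

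Counts were rounded. In R 4.3.3, edgeR 4.0.16 was run over the whole table with filterByExpr (minimum count 10), TMM and the quasi-likelihood test, KO minus WT, two-sided, without covariates; a Benjamini-Hochberg adjusted p under 0.05 was a call. SE was taken as the size of the log2 change divided by the root of the F statistic. Correlations used log2(normalised CPM + 0.5). The procedure was tested on simulated data. Alternatives used DESeq2 1.42.0, limma 3.58.1 (voom), other scalings, filters, gene sets and subsets of libraries. Figures used matplotlib 3.10.9.

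The members and lists were chosen with earlier results of these data known. Named were the 10 genes, the 3 genes of each other list with the smallest unadjusted p (none passed; 1 of these is not reported here), and the 5 genes most like the members in pattern; Nab1, Nab2, Fos and marker genes were named in addition, after their values were seen. All 138 list symbols matched the table. No 2 libraries of a group agreed within sampling noise (lowest chi-square per degree of freedom 67.0 over 13 pairs). A count of 0 allows up to 3 counts; intervals cover counting error only, since reads carry no molecular identifiers.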

Additional observations from a re-analysis of the deposited data

Results flagged for a closer look

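In 6 of the 10 groups of 5 WT libraries tested, 1 for each gene, a single library stood apart from the rest by Dixon's 95% criterion, the gap to its nearest neighbour over the group's range; chance gives about 1 in 20 such groups, and the genes share the same libraries. WT replicate 4 stood apart with 408.5 normalised CPM of Nr4a1, 86.5 of Egr1, 295 of Ier2 and 1160 of Ier5. WT replicate 3 did so with 50.3 of Egr2, and WT replicate 5 with 449.7 of Btg2. The KO group has 3 libraries and was not tested in this way. On library totals, WT replicate 4 had 162 CPM of Nr4a1 and 459 of Ier5, still the highest of the 8 libraries for both. By the same criterion on library totals, an alternative chosen after seeing the data, 2 of the 10 groups had a library that stood apart: WT replicate 3 for Egr2 and WT replicate 4 for Ier5. The T cell markers, B cell markers and NK cell markers were also highest in that library, at 15936, 3137 and 4039 normalised CPM summed over each list, and their part in these values was not tested.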

How the results depend on the processing

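With all libraries, 0 genes were called by edgeR (2124 at an unadjusted p under 0.05), and 1 was called with library totals, with upper quartile factors, with no filter, with a mean of at least 5 CPM and after thinning, while limma-voom called 22 and DESeq2 2421; of the 10 genes 4 were called by DESeq2 and 0 in every other setting. Their median log2 change of −1.94 became −0.95 with library totals and −0.99 with upper quartile factors. In the other 18 settings it ran from −2.25 (DESeq2) to −1.38 (protein-coding genes). Those values lay within 0.60 of −1.94, the pooled SD between libraries of the members' median level, which is not an error of the difference. The median covered 8 genes without WT replicates 2 and 3, and 9 without WT replicate 1, 2 or 3 alone. The number of the 10 genes with groups that did not overlap, 1, became 0 with library totals and upper quartile factors. It was 2 of 8 tested without the 2 libraries whose name begins with FY (WT replicates 2 and 3), where Nr4a2 and Egr3 failed the filter. In that setting 1240 of all 13532 genes did so, lower in KO. Without WT replicates 4 and 5 it was 6 of 10, against 10.9% of all genes. With a single library left out it ran from 1 to 4. The background then ran from 800 of 16092 genes (without KO replicate 3) to 1460 of 16489 (without KO replicate 1), lower in KO. Fewer libraries make overlap rarer for any gene. The ratios of summed counts, WT over KO, became 153 for Nr4a2 and 89.7 for Egr3 on library totals, which was tried after seeing the data. Only 5 of 11 pairs of gene and motif were left in the 100 bases before the start. The log2 change of Egr1 turned positive with library totals (1.21), upper quartile factors (0.90), a mean of at least 5 CPM (0.24), limma-voom (3.44), thinning (0.35), protein-coding genes (0.51), without WT replicates 4 and 5 (1.97) and with the replicate block (3.21), and with 1 library left out it ran from −0.56 to 2.34. That of Ier2 turned positive with library totals (0.20), upper quartile factors (0.076), without WT replicates 4 and 5 (0.21) and with the replicate block (0.12). That of Nr4a3 was −4.64 with limma-voom and −4.38 with the replicate block. That of Egr2 was 1.603 without the FY libraries and ran from −4.25 to 1.85 with 1 library left out. The causes were not tested. The replicate numbers did not pair the libraries (correlations of deviations 0.02, 0.02 and 0.05 for numbers 1 to 3, with KO replicates 1 and 2 closest to a WT library of another number), and with the replicate block 0 genes were called, with 1331 at an unadjusted p under 0.05. The totals of 4314445 to 8477879 counts in KO libraries set how low a level could be seen there. With every library thinned to 4314262 counts, the log2 change was −7.20 for Nr4a2, −6.83 for Egr3, −2.11 for Nr4a3 and −0.55 for Egr2. Nr4a2 and Egr3 had no more than 3 counts in any KO library before thinning and reached the filter through WT libraries alone. A large negative change was thus set in advance for these 2 genes, and the part of depth was not tested.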

Other observations

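The 10 genes did not vary as 1 group across libraries. Of 45 pairs, 28 had a positive and 17 a negative Pearson correlation of log2 normalised CPM over the 8 libraries, with a median of 0.19. Ier2 and Ier5 were closest (0.90), followed by Nr4a3 and Egr3 (0.75), and Egr1 and Egr3 were the most opposed (−0.94). These are descriptions over 8 libraries that share depth and scaling, and several points are at 0 counts. Fos, chosen after its values were seen, had 65.9, 67.1 and 85.2 normalised CPM in the KO libraries and 665, 547, 202, 145 and 67.1 in the WT libraries, so that WT replicate 5 alone lay among the KO libraries (log2 change −2.16, SE 0.85, adjusted p = 0.325 in edgeR).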
